A study of Mus musculus with 4 samples.

Results

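Deletions of 3 to 19 bp that touched a Cas9 cut and carried at most 1 bp of microhomology were examined at 2 target sites in mouse embryonic stem cells (mESCs). Microhomology is the number of identical bases that abut the junction of a deletion, so that the same product can be written with the gap in more than 1 place. A deletion entered the set when its allele held a single internal gap of that size, no inserted base and no mismatch within 10 bp of the gap, and when any equivalent placement of the gap touched the cut. Of 1587 distinct single deletions at the cut, 301 met these conditions and are called members here, 151 at Site 7 and 150 at Site 9. They held 351469 of the 1009449 reads with a single deletion at the cut (34.8%). Size, microhomology and contact with the cut are thus set by the choice of deletions. The side of the cut that was lost, the abundance of each deletion, the split between 0 and 1 bp and the size profile are not.

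The data were amplicon sequences of genomic DNA from E14 mESCs, a male line of strain 129/Ola grown without feeders in medium with LIF. All 4 libraries came from cells that received Cas9 nuclease and 1 sgRNA on plasmids by lipofection and were selected with puromycin or by GFP. Site 7 and Site 9 had 2 libraries each, numbered replicate 1 and replicate 2, and no library of unedited cells was analysed here. Each library is a PCR product of a pool of edited cells, so reads are not separate repair events, and the labels do not say whether the replicates were separate transfections. Aligned reads per library ranged from 380601 to 447620 with a median of 404285, and 3 reads corresponded to between 0.000670% and 0.000788% of a library. Intervals and floors cover counting error only.

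Cas9 cuts within the protospacer, the stretch that matches the sgRNA, close to the protospacer adjacent motif (PAM), and the break has a PAM side and a protospacer side. Non-homologous end joining rejoins the ends with little or no processing and can lose a few bases, whereas microhomology-mediated end joining trims the ends and anneals short repeats on either side of the break. Junctions with 0 or 1 matching base do not by themselves tell these routes apart, since a single match also arises by chance.

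The windows around both cuts are shown because the side and the microhomology of every deletion follow from their letters (plus strand of mm9, protospacer in capitals).
Site 7, chr16:92520163-92520206: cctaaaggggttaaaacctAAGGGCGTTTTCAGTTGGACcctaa
Site 9, chr6:92370100-92370143: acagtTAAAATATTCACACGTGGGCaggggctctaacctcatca
At Site 7 the sgRNA matches the minus strand (92520182 to 92520201), so the PAM is to the left of the capitals, at 92520179 to 92520181. Cas9 cuts there after 92520184, inside a Clic6 intron, although the labels name the site after Runx1. At Site 9 it matches the plus strand (92370105 to 92370124), with the PAM to the right at 92370125 to 92370127. The cut follows 92370121, inside a Prickle2 intron (a gene of the minus strand), with 15 intronic bases between the cut and the exon that begins at 92370137.

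The most abundant deletions at Site 7 are given with the deleted bases in capitals, placed as far left as the sequence allows, because the largest read counts and the contrast between the sides rest on them.
Site 7, 4 bp, PAM side: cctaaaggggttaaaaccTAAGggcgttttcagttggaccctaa
Site 7, 8 bp, both sides: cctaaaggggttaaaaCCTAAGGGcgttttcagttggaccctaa
Site 7, 3 bp, PAM side: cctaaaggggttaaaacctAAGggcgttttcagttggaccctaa
Site 7, 4 bp, protospacer side: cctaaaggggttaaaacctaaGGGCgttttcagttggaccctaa
Site 7, 3 bp, both sides: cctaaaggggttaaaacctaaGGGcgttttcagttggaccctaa
Site 7, 3 bp, protospacer side: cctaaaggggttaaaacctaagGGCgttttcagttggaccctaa
The 4 bp deletion on the PAM side, from 92520181 to 92520184, was the most abundant, with 10281 reads in replicate 1 and 9366 in replicate 2, or 2.59% and 2.28% of aligned reads. The 8 bp deletion from 92520179 to 92520186 followed with 10226 and 8057 reads (2.57% and 1.96%). Its ends share a C, whereas the 4 bp deletion has no matching base at its junction. The 3 bp deletion on the PAM side held 1.97% and 1.93%, close in both libraries. On the protospacer side the 4 bp loss of GGGC held 1.68% and 1.33%, and the 3 bp loss of GGC held 1.51% and 1.01%, the latter with the wider spread between replicates. Both share a G with the base next to the gap. The loss of the whole GGG run, which spans the cut, held 1.36% and 1.29%. Another two-sided deletion, the 8 bp TAAGGGCG from 92520181 to 92520188, shares a T and held 1.25% and 1.13%. It starts at the same base as the leading 4 bp deletion.

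At Site 9 the leading deletions are shown in the same way, together with the most abundant PAM-side deletion, for contrast with Site 7, and the most abundant one that reaches the splice donor.
Site 9, 6 bp, both sides: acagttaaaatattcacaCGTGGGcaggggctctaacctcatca
Site 9, 4 bp, both sides: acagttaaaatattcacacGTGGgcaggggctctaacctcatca
Site 9, 3 bp, protospacer side: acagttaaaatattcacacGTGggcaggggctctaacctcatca
Site 9, 7 bp, both sides: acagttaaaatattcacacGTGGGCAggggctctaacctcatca
Site 9, 7 bp, protospacer side: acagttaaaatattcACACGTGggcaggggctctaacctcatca
Site 9, 8 bp, PAM side: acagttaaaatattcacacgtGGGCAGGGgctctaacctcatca
Site 9, 19 bp, to the splice donor: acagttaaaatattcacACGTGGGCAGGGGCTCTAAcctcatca
The 6 bp loss of CGTGGG, from 92370118 to 92370123, had 12177 and 9345 reads (2.72% and 2.46% of aligned reads) and shares a C. It alone made up 19.4% ± 0.772 (SD, n = 2) of the member reads of its site, against 8.19% ± 0.424 for the leading deletion at Site 7. The 4 bp loss of GTGG held 1.94% and 1.52%, the 3 bp loss of GTG 1.22% and 0.939%, and the 7 bp loss of GTGGGCA 1.02% and 0.787%. These 3 start at the same base, 92370119, and share a G. The fifth in rank, the 7 bp protospacer-side loss with no matching base, held 0.382% and 0.365%, a step down from the first 4. Longer two-sided deletions came next, with 0.426% and 0.287% for the 12 bp loss from 92370118 to 92370129 and 0.352% and 0.339% for the 14 bp loss from 92370116 to 92370129. Both end at the same base and share a C.

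Members were more abundant at Site 7 than at Site 9. They held 30.5% and 28.9% of aligned reads in the Site 7 libraries (Wilson 95% intervals 30.3% to 30.6% and 28.7% to 29.0%). The Site 9 libraries held 14.5% and 12.3% (14.4% to 14.6% and 12.2% to 12.4%). The sites did not overlap, with means of 29.7% ± 1.12 and 13.4% ± 1.503 (SD, n = 2) and a difference of -16.3 percentage points for Site 9 minus Site 7. Permuting the libraries between the sites (exact test, two-sided, 2 against 2) gave p = 0.333, the smallest value it can give (adjusted p = 0.394 over 13 tests), so that no comparison of the sites can pass a threshold of 0.05. Reads with an insertion or deletion at the cut numbered 371450 of 397547 and 382182 of 411023 at Site 7. At Site 9 they numbered 263805 of 447620 and 209776 of 380601. A share of aligned reads thus also varies with the share of edited reads. Among reads with an insertion or deletion at the cut the difference was -8.37 points. As a share of all single deletions at the cut, members held 37.6% and 35.4% at Site 7, against 33.5% and 29.6% for Site 9 (difference -4.92 points, exact permutation p = 0.333).

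The side of the cut that was lost differed in order between the sites. Deletions that removed bases on the PAM side only held 31.6% and 32.2% of member reads in the Site 7 libraries, against 4.999% and 6.24% in those of Site 9. Loss on the protospacer side only made up 12.0% and 10.3% at Site 7, and at Site 9 it made up 20.6% and 16.9%. Among members, one-sided loss was thus mostly on the PAM side at Site 7 and mostly on the protospacer side at Site 9, an order that at Site 9 depends on the limit on microhomology, as given with the counts for any microhomology. The PAM-side means were 31.9% ± 0.484 and 5.62% ± 0.878, a difference of -26.3 points that exceeded the spread between replicates. The protospacer-side means were 11.2% ± 1.24 and 18.7% ± 2.64, a difference of 7.57 points. Deletions on both sides were the largest group everywhere, with 56.4% and 57.5% at Site 7, and 74.4% and 76.9% for the Site 9 libraries (difference 18.7 points, or 7.79 points without the leading deletion of each site). Two-sided deletions are 82.2% of the possible members at Site 7 and 81.1% at Site 9, so their share of reads was the lower. Each of the 3 differences had an exact permutation p of 0.333 and an adjusted p of 0.394.

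The limit on microhomology does not take away the same deletions at both sites, which bears on this contrast. Each side has 17 possible one-sided deletions of 3 to 19 bp. At Site 9 all 17 protospacer-side deletions qualified but 13 of the 17 PAM-side ones did, because those of 4, 5, 6 and 7 bp carry 2 or more matching bases. At Site 7 the 4 PAM-side deletions of 13, 14, 15 and 16 bp and the 3 protospacer-side deletions of 11, 13 and 14 bp fell out in the same way. When deletions of 3 to 19 bp with any microhomology were counted, the PAM-side difference was -17.8 points and the protospacer-side difference 0.406 points, so the PAM-side contrast kept its direction and the protospacer-side contrast all but vanished. Within Site 9 the order of the sides was then lost, with 11.9% PAM-side and 12.9% protospacer-side reads in replicate 1 and 12.1% and 9.69% in replicate 2. Within Site 7 it was kept, with 30.1% and 11.8% in replicate 1 and 29.5% and 9.96% in replicate 2. When each distinct deletion with at least 3 reads counted once, the PAM-side difference was 0.493 points. PAM-side deletions are 8.55% of the possible members at Site 7 and 8.18% at Site 9, so this count had little room to differ. The contrast was one of read counts.

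**Figure D1:**
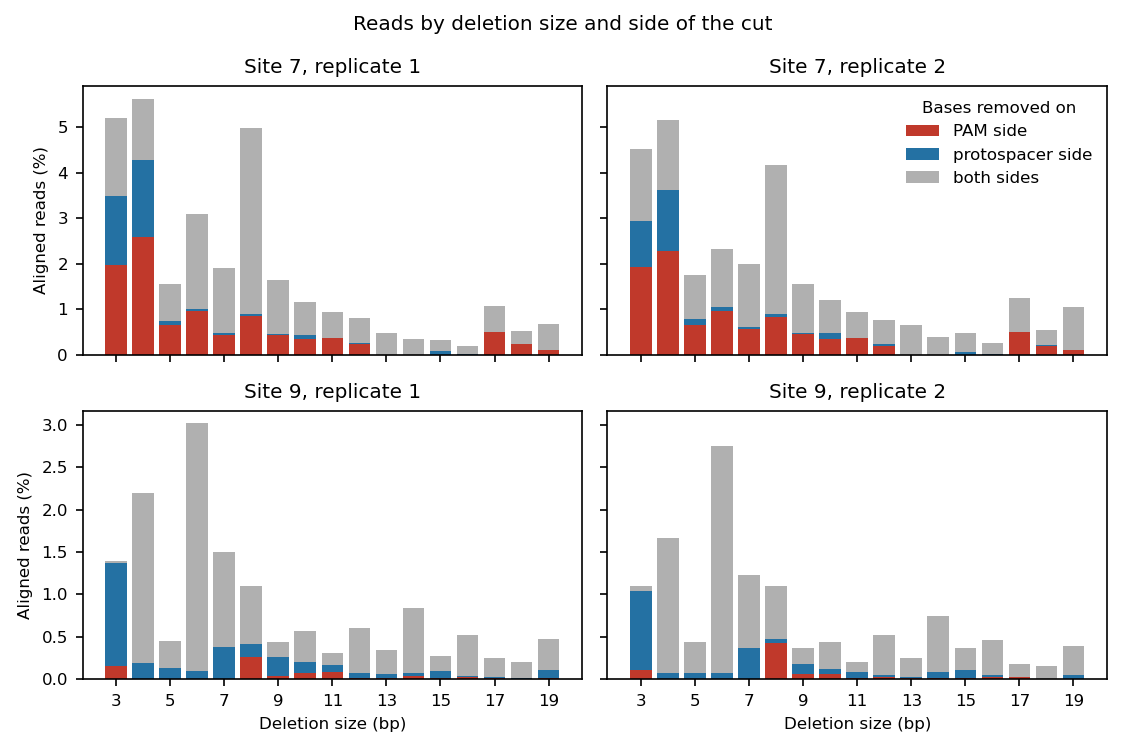
Percent of aligned reads (vertical axis) by deletion size in bp (horizontal axis) in the 4 libraries, stacked by the side of the cut on which bases were removed. In both Site 7 libraries the PAM-side part reaches up to 19 bp, and at Site 9 the tallest bar is the 6 bp class, almost all of it two-sided.

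The sizes were weighted to the short end at both sites. At Site 7 the 3 bp class held 17.05% and 15.6% of member reads, the 4 bp class 18.5% and 17.9% and the 8 bp class 16.3% and 14.4%. At Site 9 the 6 bp class held 20.9% and 22.3%, the 4 bp class 15.2% and 13.5% and the 7 bp class 10.3% and 9.91%. The 6 bp peak at Site 9 followed 1 deletion, the CGTGGG loss, with 18.8% and 19.9% of member reads. The 8 bp peak at Site 7 joined several. Its CCTAAGGG loss held 8.45% and 6.79% of member reads and its TAAGGGCG loss 4.10% and 3.91%. Sizes of 3 to 8 bp together came to 71.1% ± 3.12 (SD, n = 2) of member reads for Site 7, and 66.9% ± 0.228 for Site 9. The mean size came to 7.32 and 7.77 bp in the Site 7 libraries, against 8.17 and 8.25 bp in those of Site 9, a difference of 0.663 bp with an exact permutation p of 0.333.

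At the size limits, with little microhomology on both sides of them, deletions of 2 bp held 14.5% and 13.6% of aligned reads at Site 7 against 5.19% and 4.51% for 3 bp. At Site 9, 2 bp held 3.07% and 2.58% and 3 bp held 1.39% and 1.10%. At the upper limit, 19 bp held 0.666% and 1.04% in the Site 7 libraries, where 20 bp held 0.370% and 0.411%. In the Site 9 libraries 19 bp held 0.472% and 0.396%, and 20 bp 0.424% and 0.288%. These values are a description of where the set begins and ends.

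One-sided deletions show the loss in 1 direction from the cut without the other. On the PAM side of Site 7, 3, 4 and 5 bp held 1.97%, 2.59% and 0.640% of aligned reads in replicate 1 and 1.93%, 2.28% and 0.640% in replicate 2. The 6 bp deletion from 92520179 to 92520184 held 0.958% and 0.951%, and the 8 bp deletion that starts at 92520177 held 0.845% and 0.826%. Sizes of 9 to 12 bp ranged from 0.184% to 0.459%. The series ran on to 17 bp, from 92520168 to 92520184, with 0.488% in both libraries, and to 19 bp with 0.0911% and 0.0942%. The replicates lay close together along most of this side. They were further apart for the deletions of 7 bp (0.433% and 0.570%) and 12 bp (0.242% and 0.184%).

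The protospacer side of Site 7 fell off within a few bases. From 1.68% and 1.33% at 4 bp the share was 0.0994% and 0.136% at 5 bp and 0.0106% and 0.00608% at 19 bp. The deletions of 3 and 4 bp share 1 base, whereas those of 5 to 9 bp share none. The 10 bp deletion, again with 1 shared base, held 0.0908% and 0.130%. Size and microhomology change together here and cannot be told apart. At Site 9 the protospacer side began with the GTG loss at 1.22% and 0.939%, which shares a G. The 4 bp deletion from 92370118 to 92370121, with no matching base, held 0.189% and 0.0699%. The 7 bp deletion on that side, also with none, held 0.382% and 0.365%. The PAM side of Site 9 began with 0.153% and 0.103% at 3 bp. Its most abundant deletion was the 8 bp GGGCAGGG with 0.263% and 0.422%, which was the higher in replicate 2. The 19 bp deletion on that side held 0.00715% in replicate 1 and no read in replicate 2, which allows a share of up to 0.000788%.

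**Figure D2:**
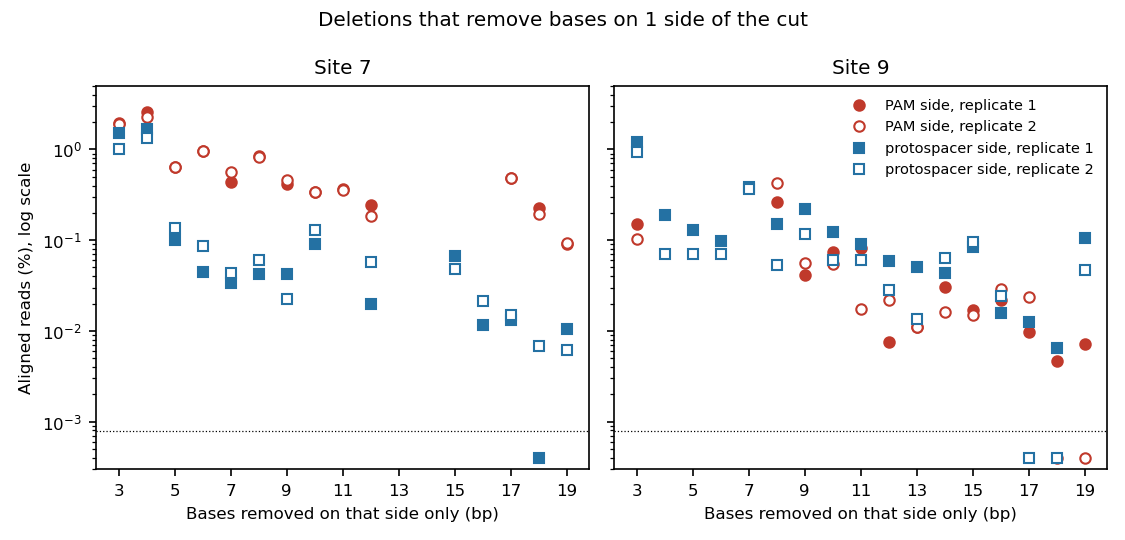
Percent of aligned reads (log scale) of each deletion that removes bases on 1 side only, against the number of bases removed, for both replicates of each site. The dotted line is the largest share that 3 reads make up in any library (0.000788%), and points at 0 are drawn below it. At Site 7 the PAM-side points lie at or above 0.0911% up to 19 bp, whereas the protospacer-side points fall to 0.0994% and 0.136% at 5 bp. The protospacer-side deletions of 3 and 4 bp there share 1 base and that of 5 bp shares none.

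Breakpoints were shared among abundant deletions. Some sharing follows from the choice, because every member touches the cut and spans at most 19 bp. With every deletion placed as far left as the sequence allows, 13 Site 7 deletions ended at 92520186 and held 25.0% of member reads in each library (mean 25.0% ± 0.0211, SD, n = 2). These 13 are 8.55% of the possible members there. The 12 that ended at 92520184, the last base before the cut, held 30.8% and 31.6%. They are the PAM-side group described above without its 12 bp deletion, not a separate result. Of 159 possible members at Site 9, the 12 that started at 92370119 held 32.9% and 32.3% of member reads. The 13 that started at 92370118 held 27.02% and 28.4%. Among these 13 the CGTGGG loss alone held 18.8% and 19.9% of member reads. The start next in rank, 92370115, held 6.20% and 6.33%. Deletions with a common end are not independent of each other.

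**Figure D3:**
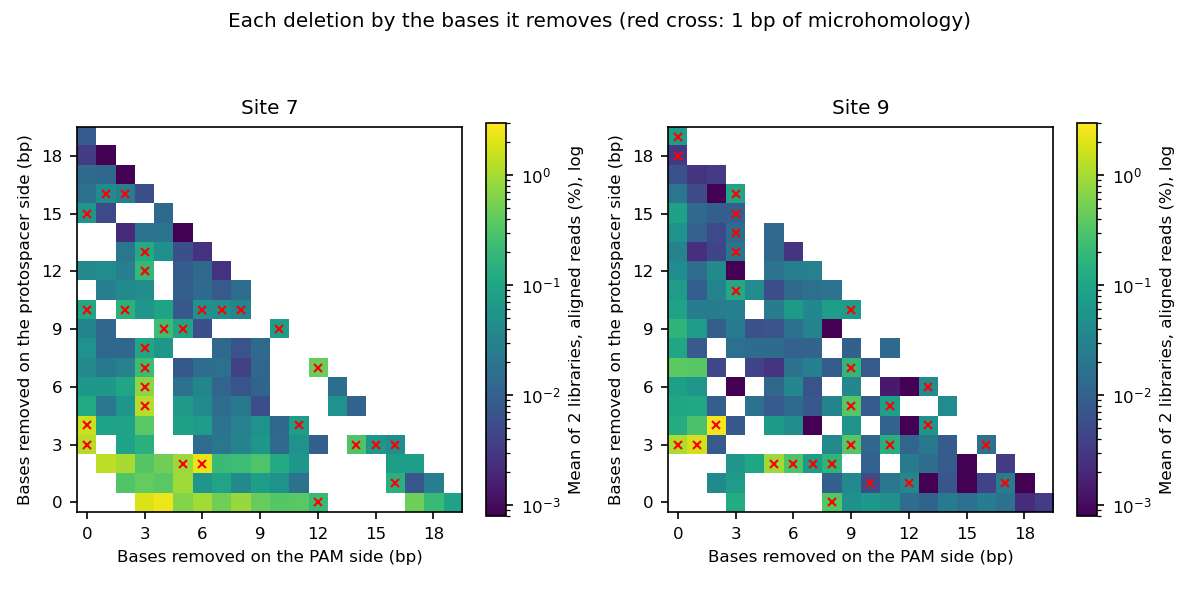
Every possible member at each site by the bases it removes on the PAM side (horizontal axis, bp) and on the protospacer side (vertical axis, bp), coloured by the mean percent of aligned reads of 2 libraries on a log scale, with a red cross for 1 bp of microhomology; where a deletion has more than 1 placement, the one that reaches least far across the cut is drawn. At Site 7 the 2 brightest cells lie in the rows of 0 and 2 protospacer-side bases, and at Site 9 in the rows of 3 and 4, which in these placements hold 49.8% of member reads together.

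Within the 0 to 1 bp range, the single matching base went with higher read counts. Deletions with 1 bp made up 18.4% of the possible members at Site 7 and 16.98% at Site 9. Of the member reads they held 37.5% and 34.5% at Site 7, whereas at Site 9 they held 66.2% and 66.8%. All 4 libraries were above the share among possible members, and both Site 9 libraries were above both Site 7 libraries. That share counts each deletion once. A deletion with 1 bp can be written with the gap in 2 places, and one with 0 bp in 1. The reads were not corrected for this. The means were 36.0% ± 2.15 and 66.5% ± 0.432 (SD, n = 2), a difference of 30.5 points with an exact permutation p of 0.333, the smallest possible, and an adjusted p of 0.394. Without the leading deletion of each site the difference was 19.2 points. With each distinct deletion of at least 3 reads counted once it was 0.385 points, a count that had little room to differ, given the shares among possible members.

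The shared base was mostly G or C at Site 9. Deletions with a shared G held 35.0% of member reads in each Site 9 library and those with a shared C 27.3% and 28.3%, whereas A held 2.76% and 2.44% and T 1.06% and 1.04%. At Site 7 a shared C held 12.6% and 10.6%, G 13.4% and 11.5% and T 10.3% and 10.6%, with A at 1.24% and 1.75%. A shared A was thus the least common at Site 7 and T at Site 9. The sequence allows 7, 4, 9 and 8 members with a shared A, C, G and T at Site 7. At Site 9 it allows 7, 7, 9 and 4. The CGTGGG loss alone held 18.8% and 19.9% of the Site 9 member reads, most of the share of C. Most of the share of G lay in the GTGG, GTG and GTGGGCA losses, which start at the same base. They held 13.4%, 8.41% and 7.09% of member reads in replicate 1 and 12.3%, 7.61% and 6.38% in replicate 2. By side, 1 bp deletions made up 91.3% and 84.7% of the protospacer-side reads at Site 7 but 2.52% and 1.98% of the PAM-side reads. At Site 9 they made up 74.1% and 72.0% of the two-sided reads.

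Per possible deletion, the median share of aligned reads stood in the same order in every library. For 0, 1 and 2 or more bp of microhomology it was 0.0270%, 0.136% and 0.417% in Site 7 replicate 1. In Site 7 replicate 2 it was 0.0341%, 0.127% and 0.432%. In the Site 9 libraries it was 0.0169%, 0.106% and 0.574% in replicate 1 and 0.0147%, 0.0778% and 0.686% in replicate 2. The median for 1 bp was 5.02-, 3.71-, 6.26- and 5.29-fold that for 0 bp. These values were not corrected for the further placements that matching bases allow. Deletions with 2 or more bp are not members and are given for scale. The median over members was below that of deletions of the same sizes with 2 or more bp in 4 of 4 libraries, by differences of -0.374, -0.386, -0.554 and -0.669 points. The mean difference of -0.496 points had an exact sign-flip permutation p of 0.125 over 4 libraries, the smallest possible (adjusted p = 0.394).

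The medians for 0 and 1 bp were also set side by side within classes of side (one or both) and size (3 to 5, 6 to 9 and 10 to 19 bp). Of 20 such pairs over the 4 libraries, 1 bp was the higher in 19, and 16 of the 20 held 4 or fewer deletions with 1 bp. The exception was the one-sided 3 to 5 bp class of Site 7 replicate 2, with 1.29% for 0 bp and 1.17% for 1 bp, and in the one-sided 10 to 19 bp class of Site 9 replicate 2 the values were nearly equal (0.02299% and 0.0235%). The largest class was the two-sided one of 10 to 19 bp. Among two-sided deletions of 10 to 19 bp the median share of aligned reads was 0.0127% for 0 bp and 0.0855% for 1 bp in Site 7 replicate 1, and 0.0221% and 0.108% in replicate 2. At Site 9 it was 0.0127% and 0.0629% in replicate 1 and 0.00815% and 0.0504% in replicate 2. In this class the 1 bp value was the higher in 4 of 4 libraries. Many of these deletions share an end, and no test was made across them. As above, the further placement of a 1 bp deletion was not corrected for.

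**Figure D4:**
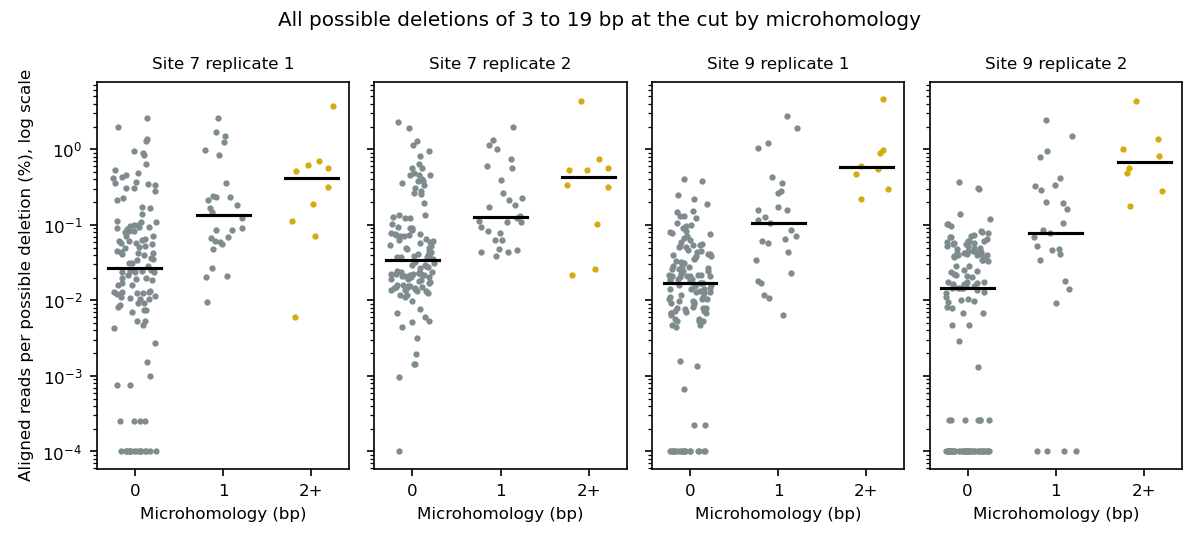
Percent of aligned reads (log scale) of each possible deletion of 3 to 19 bp at the cut, grouped by 0, 1 or 2 and more bp of microhomology, in each library. The medians rise from 0 to 1 to 2 and more bp in all 4 libraries, for example 0.0270%, 0.136% and 0.417% in Site 7 replicate 1.

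The reads were more concentrated in few deletions at Site 9. The 5 most abundant members of each library held 33.9% and 30.4% of member reads for Site 7, against 50.7% and 49.6% for Site 9, a difference of 18.0 points (exact permutation p = 0.333), or 11.04 points without the leading deletion of each site. It took 10 and 11 deletions to reach 50% of the Site 7 member reads but 5 and 6 for Site 9. To reach 90% it took 46 and 55 in the first case, 52 and 51 in the second. The difference thus lay at the top of the ranking. More than 1% of aligned reads was held by 8 deletions in each Site 7 library and by 4 and 2 in the Site 9 libraries. This count also varies with the share of edited reads, which was lower at Site 9.

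Most deletions that the sequence allows were seen. Over both libraries these were 151 of 152 possible members of Site 7 and 150 of 159 of Site 9. Single libraries held at least 3 reads for 86.8% and 99.3% of the Site 7 members, and for 87.4% and 68.6% of the Site 9 members. The sites overlapped in this measure (exact permutation p = 0.667, adjusted p = 0.722). A single possible member of Site 7, a two-sided 19 bp deletion, and 9 of Site 9, all two-sided, had no read in either library. Of the possible members, 82.2% at Site 7 and 81.1% at Site 9 are two-sided.

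The replicates ranked the deletions more alike at Site 7 than at Site 9. Spearman's rho between replicates was 0.93 over the 152 possible members of Site 7 and 0.66 over the 159 of Site 9, as a description across deletions that share ends. Of the 123 Site 7 members with at least 100 reads over both libraries, 77 were within 1.5-fold and 98 within 2-fold of each other. Of the 100 such members at Site 9, 39 were within 1.5-fold and 53 within 2-fold. Among the 10 most abundant, 8 were shared between replicates at Site 7 and 9 at Site 9. The top of the ranking repeated at both sites, and the lower part varied more at Site 9.

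Some deletions were absent from 1 library and well covered in the other. At Site 9, 10 deletions with at least 100 reads in all came from 1 library only. All 10 were of at least 11 bp and two-sided, as are 81.1% of the possible members there. The extreme was the 18 bp deletion from 92370110 to 92370127, with 244 reads in replicate 1 and 0 in replicate 2, at least 69.2-fold higher against a floor of 3 reads per library. At Site 7 there was 1, the 14 bp deletion from 92520175 to 92520188, with 0 reads in replicate 1 and 101 in replicate 2 (at least 32.6-fold higher). Without a minimum of reads, 15 Site 7 members were seen in replicate 2 only and 0 in replicate 1 only. At Site 9, 34 were seen in replicate 1 only and 9 in replicate 2 only. Low read counts were also rare: members with 4 to 19 reads numbered 5, 6, 2 and 4 in the libraries in order, and those with 20 or more reads 125, 145, 136 and 105. How many cells or templates stood behind a deletion was not measured.

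**Figure D5:**
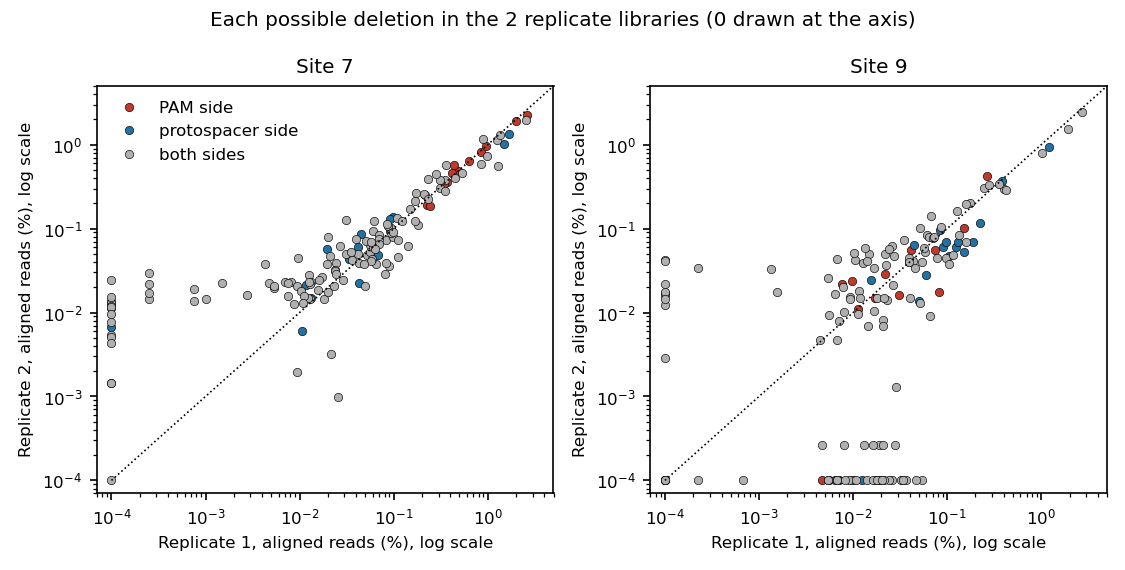
Percent of aligned reads of every possible member in replicate 1 (horizontal axis) and replicate 2 (vertical axis), both on log scales, with deletions at 0 drawn at the axis and colours for the side of the cut. Site 7 lies closer to the diagonal (rho 0.93) than Site 9 (rho 0.66), where more deletions sit at an axis. At Site 7, 15 deletions had reads in replicate 2 only and 0 in replicate 1 only.

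The side of loss was set beside that of 2 other classes of single deletions at the same cuts. Deletions of 1 to 2 bp were not used, because 1 of the 3 seen in each library, with 54.5% to 63.1% of their reads, can be placed wholly on either side. Deletions of 3 to 19 bp with 2 or more bp of microhomology removed the PAM side only in 23.8% and 19.1% of their reads at Site 7, and in 23.5% and 19.998% for Site 9. Members minus these came to 7.76 and 13.1 points in the Site 7 libraries but to -18.5 and -13.8 points in those of Site 9. The mean difference of -2.84 points had an exact sign-flip permutation p of 0.75 over 4 libraries, and its sign turned when either Site 9 library was left out (2.38 and 0.798 points). The negative values at Site 9 depend on the side rule. When the leftmost placement decided the side, members minus these deletions came to 21.7, 24.1, 0.642 and 0.897 points, a mean of 11.8 points with an exact p of 0.125, the smallest possible. Deletions of 20 bp or more with little microhomology removed the PAM side only in 15.4% and 10.6% of their reads for Site 7, against 3.24% and 3.19% for Site 9. Members were above these in 4 of 4 libraries, by 16.2, 21.7, 1.76 and 3.05 points, a mean of 10.7 points with an exact p of 0.125, the smallest possible (adjusted p = 0.394). Longer deletions can be placed across the cut in more ways, so a smaller part of the possible ones is one-sided. The comparison was not corrected for size, and a higher share in members is the direction that size alone gives.

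At Site 9 the exon of Prickle2 lies within reach of these deletions. Of the possible members, 17 reach the splice donor at 92370135 to 92370136 or the exon beyond it, and 15 of them were seen, with 961 and 739 reads (1.48% and 1.57% of member reads). The 8 that remove exon bases held 338 and 330 reads (0.522% and 0.703%). The most abundant deletion to reach the donor was the 19 bp one from 92370117 to 92370135 shown among the sequences, with 175 and 168 reads (0.0391% and 0.0441% of aligned reads). As a share of member reads, these deletions stood at a like level in both libraries.

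The allele call of the analysis program was not part of the choice and differed from it for a few members. Reads called unmodified made up 0.795% and 0.639% of member reads in the Site 7 libraries, against 0.0448% and 0 in those of Site 9 (difference -0.695 points, exact permutation p = 0.333). At Site 7 all of them, 963 and 758 reads, belonged to a 12 bp deletion from 92520172 to 92520183, whose leftmost placement stops 1 base short of the cut. At Site 9 they were the 29 reads of an 18 bp deletion that starts at 92370103. Both touch the cut in another, equivalent placement, and when the leftmost placement had to touch the cut no such read was left.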

How the data were processed

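Genomic DNA of pools of edited E14 mESCs was amplified around the cut and sequenced. The authors trimmed the reads, aligned them to the amplicon with CRISPResso and deposited 1 table per library that lists each allele with its read count and its percent of aligned reads. The submitters' processing notes name Trim Galore 0.3.1 and mm9, and the settings of the aligner are not given in the sources used here. The deposited counts were used for every value, and percentages were recomputed from them. The table columns with deleted, inserted and mutated bases were not used to choose deletions.

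Groups came from the labels, with 2 libraries per site. End gaps were ignored, each gap was moved to its leftmost equivalent placement, and microhomology was counted over up to 10 bp on the longer side there. A deletion was put on the PAM or protospacer side when any equivalent placement lay wholly there. All deletions that the amplicon allows under the same rule were enumerated. Amplicons and protospacers were located by exact match in mm9 (NCBIM37) and annotated with GENCODE. Alleles with a mismatch within 10 bp were left out, which took 9.17%, 8.72%, 11.4% and 11.2% of otherwise matching reads in the libraries in order.

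Sites were compared over libraries with the exact two-sided permutation test and deletion classes within libraries with the exact sign-flip test, with Benjamini-Hochberg adjustment over 13 tests. No model was fitted across deletions. Named deletions were, per site, the 4 most abundant of each side, the most abundant of each size and of each shared base, the one that differed most between replicates, and at Site 9 the most abundant that reaches the splice site or exon. The text gives a selection of them, and the 12 bp and 18 bp deletions called unmodified were named after their values were seen. Members, lists and tests were chosen with earlier results of these data known. Alternatives changed the mismatch filter, the minimum of reads (10), the placement rule, the counting unit, the caller, the denominator, the libraries and the pairing.

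The steps were tested on simulated alleles (93 and 86 distinct deletions), of which 100% were recovered. The simulated mismatches lay to the left of the gap only, so the filter on its right was not tested. Python 3.11.15, pandas 2.3.3, numpy 2.4.6, scipy 1.17.1 and matplotlib 3.10.9 were used. The PCR had no molecular identifiers, and reads are not separate molecules, so Wilson 95% intervals cover counting error only, and p-values measure only the spread between these libraries, which may be technical.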

Additional observations from a re-analysis of the deposited data

Results flagged for a closer look

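Both results below had effects of opposite sign at the 2 sites in every library, and the difference itself had an exact permutation p of 0.333, the smallest that 2 libraries against 2 allow. The PAM-side share of member reads minus the protospacer-side share was 20.7 percentage points (SD 1.72, n = 2) at Site 7, with 19.5 and 21.97 points in the libraries. At Site 9 it was -13.1 points (SD 3.52, n = 2), with -15.6 and -10.6 points. The negative sign at Site 9 depends on the limit on microhomology, since over deletions of 3 to 19 bp with any microhomology the same difference was 18.3 and 19.6 points in the Site 7 libraries, but -1.004 and 2.40 points in those of Site 9.

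The share of member reads with 1 bp of microhomology minus the share with 0 bp was -28.0 points (SD 4.30, n = 2) at Site 7, with -25.0 and -31.0 points in the libraries. At Site 9 it was 32.9 points (SD 0.865, n = 2), with 32.3 and 33.6 points. These signs are relative to an even split of the reads. Deletions with 1 bp are 18.4% of the possible members at Site 7 and 16.98% at Site 9. Their mean shares of member reads, 36.0% and 66.5%, were above these values at both sites.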

How the results depend on the processing

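With 2 libraries per site no comparison could pass a threshold of 0.05, so that the alternatives bear on size and direction alone. Of 149 alternative values, 140 kept their direction and their side of the threshold, 1 went to 0 and 8 reversed. Among those kept, 10 with the replicate block and 10 with crossed replicate numbers equal the main value by construction. When each distinct deletion counted once, the Site 9 minus Site 7 difference was 10.1 points for the share of single deletions, 0.493 points for the PAM-side share, -3.93 points for the two-sided share and 0.385 points for the 1 bp share. Such counts by side or by 1 bp had little room to differ, as given above. Allowing any microhomology, leaving out the leading deletion of each site and crossing the replicate numbers were added after the data were seen. With any microhomology the share of single deletions differed by 7.19 points and the mean size by -0.483 bp. The unmodified-call share differed by 0 points when the leftmost placement had to touch the cut. The PAM-side share of members minus that of deletions with 2 or more bp of microhomology was 11.8 points when the leftmost placement decided the side, and ranged from -8.16 to 2.38 points when each library was left out in turn. The causes were not tested.

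Leaving out each library in turn gave -17.3 to -15.2 points for the share of aligned reads, -6.83 to -3.00 for the share of single deletions, -26.9 to -25.7 for the PAM-side share and 29.0 to 32.0 for the 1 bp share. The share of possible members seen ranged from -24.5 to -5.67 points. The replicate block, which pairs libraries by number, cannot change a difference of means and bears on the p-value alone. For the share of aligned reads (-16.3 points) and the PAM-side share (-26.3 points) it gave an exact p of 0.5 each, the smallest that 2 pairs allow. The numbers are not known to pair the libraries, and deviations of same-numbered libraries over 17 size classes had r = -0.29. With the numbers crossed, 0 of 10 differences passed the threshold, as with the block. Apart from the block and its crossed form, settings that leave a value as it is by construction, such as the side rule for the mean size, were not run. Depth limits deletions under 3 reads, at most 0.000788% of a library.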
